A study of Arabidopsis thaliana with 33 samples.

Results

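In Arabidopsis leaves grown on limiting nitrogen, 21 probe sets read higher than on ample nitrogen at both CO2 levels and at both times of day. They were chosen from 12772 probe sets (the array's hybridisation and labelling controls left out) by 1 rule: the mean log2 value at limiting nitrogen exceeded that at ample nitrogen by at least 0.4 in each of 4 conditions. A log2 difference of 0.4 is a ratio of 1.32. The rule was met by 23 probe sets, of which those of AT1G68600 and AT1G25530 were left out by name, along with 4 other listed genes that did not meet it (AT2G16660, AT4G34950, GAMMA-VPE and APL3). Of the 21 probe sets, 10 are paired with 1 gene in the platform's annotation, 1 is paired with 2 genes, and 10 carry no gene name there and are given by their probe set identifiers. The nitrogen differences chose these probe sets, so they are given below as a description, with no test. CO2 and time effects, averaged over both nitrogen supplies, were tested.

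The plants were Arabidopsis thaliana Columbia (Col-0), and RNA came from the youngest fully expanded leaf on day 35. CO2 was elevated (750 ppm) or ambient (370 ppm), ammonium nitrate was limiting (0.25 mM) or ample (6 mM), and leaves were taken at midday or midnight, under a light period of 10 h at 250 µmol per square metre per second. At elevated CO2 there were 4 limiting and 3 ample arrays at midday, and 4 limiting and 5 ample arrays at midnight. At ambient CO2 there were 4 limiting and 4 ample arrays at midday, and 4 limiting and 5 ample arrays at midnight. The labels do not say whether arrays of a group came from separate plants, pools or growth chambers, so p-values rest on array-to-array spread only, which may be technical. Values are log2 expression relative to the median of the same array.

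Nitrogen is needed for amino acids, proteins, nucleotides and chlorophyll, and leaves short of it commonly slow growth, break down and re-export protein nitrogen, and store more carbon as starch and secondary products. Elevated CO2 raises the supply of fixed carbon relative to nitrogen, and many leaf transcripts also follow the light and dark cycle. Of the 11 probe sets with gene names, 7 have a known family: a carbohydrate-binding lectin, a phosphatase-family protein, a lipid transfer protein, a glycosyltransferase, a pair of copper amine oxidase family genes, an extensin-related secreted protein and an ankyrin-repeat protein. AT1G64360, AT5G64550, AT1G76960 and AT5G05250 are given by locus only, with no role.

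Leaf identity and array quality were looked at first. The mesophyll genes RCA, PRK, SBPASE and PSAN, which act in photosynthesis, lay 5.04 to 6.11 above the array median on the log2 scale, while the guard cell regulator FAMA lay at -1.91 and the phloem sugar exporter SWEET11 at 3.70. None of the listed root, xylem, epidermis or floral markers was measured under a gene name. Replicate 4 of ambient CO2 with ample nitrogen at midnight stood apart: its root mean square distance from its group was 0.75 and its 3' to 5' control ratio, a measure of RNA or target length, was 4.41 on the log2 scale. Replicate 1 of elevated CO2 with limiting nitrogen at midnight had a distance of 0.60. The other arrays had distances of 0.24 to 0.49 and ratios of 1.46 to 2.35. The main counts are given with and without these 2 arrays. No 2 arrays were duplicates.

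The nitrogen differences of the 21 probe sets had medians of 0.74 at elevated CO2 and midday, 0.71 at elevated CO2 and midnight, 0.61 at ambient CO2 and midday, and 0.79 at ambient CO2 and midnight. Over all 12772 probe sets the medians of the same differences lay between -0.022 and 0.009. The smallest of a probe set's 4 differences was the one at ambient CO2 and midday for 11 of the 21. The largest was the one at ambient CO2 and midnight for 8. Averaged over the 4 conditions, the difference was 1.24 for AT1G64360, 1.22 for AT3G16670 and 1.01 for AT2G39920. It was 0.89 for AT5G64550, 0.68 for AT5G05250, 0.72 for AT2G36970 and 0.62 for AT4G03500, and lower for AT4G36640 (0.61), EULS3 (0.61) and AT1G76960 (0.58). A difference of 0.4 or more in a single condition was common: 450 to 639 probe sets had one, depending on the condition.

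**Figure D1:**
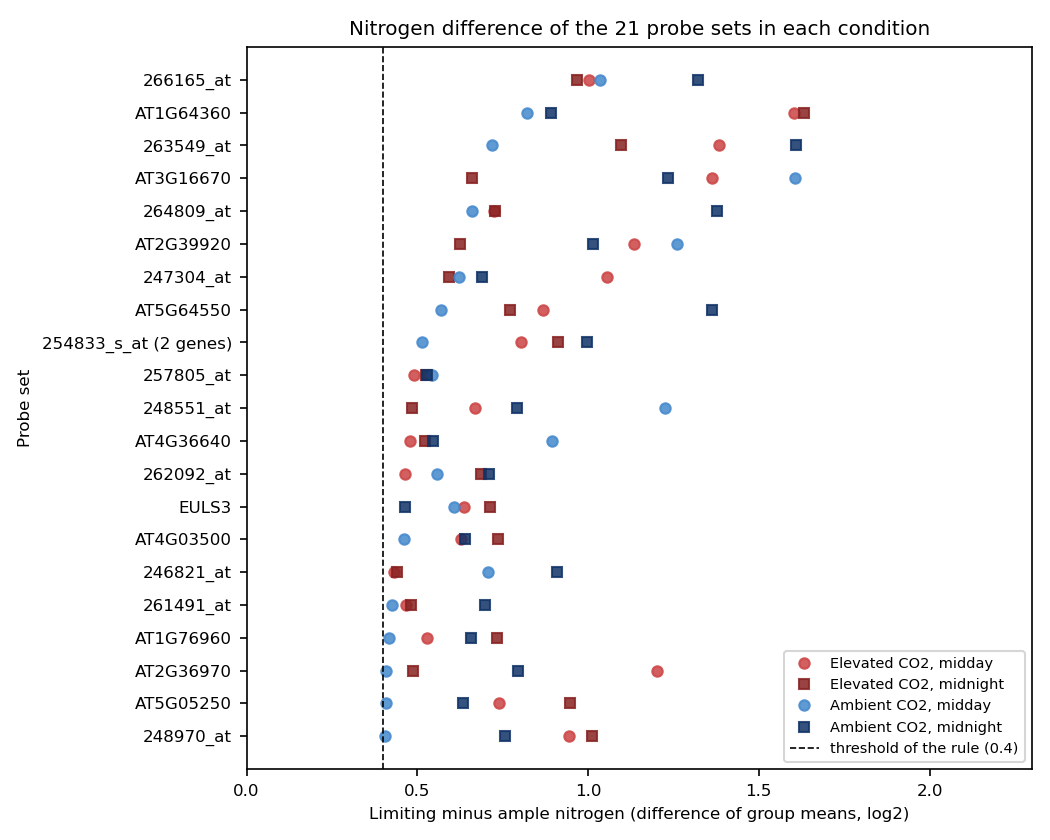
Limiting minus ample nitrogen (log2 difference of group means, horizontal axis) for the 21 probe sets (rows, in order of their smallest difference), with 1 point for each of the 4 conditions and a line at the threshold of 0.4. The probe set 266165_at is at or above 0.97 in all 4 conditions, and 248970_at, AT5G05250 and AT2G36970 touch the line in ambient CO2 at midday.

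Complete separation of the arrays was less common than the mean differences. At elevated CO2 and midday, every limiting array lay above every ample array for 7 of the 21 (2.66% of all probe sets); at elevated CO2 and midnight this held for 8 (1.1%). At ambient CO2 it held for 10 at midday (2.5%) and for 6 at midnight (1.0%). The rule used these same arrays, so nothing is read from these shares. Only 266165_at separated in all 4 conditions (0.0157% of all probe sets), and 4 of the 21 separated in none. Without both arrays that stood apart, the counts at midnight were 10 at elevated CO2 (2.64% of all probe sets) and 7 at ambient CO2 (1.64%). In that setting 2 of the 21 separated in all 4 conditions (0.0235%).

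The probe sets also varied more between arrays of a group than most did. Their within-group SD had a median of 0.49 (range 0.33 to 0.81), against a median of 0.28 over all probe sets, and all 21 lay above that median. A rule on means alone admits probe sets of wide spread more readily. Since the deposited values have a median of 0 on every array, a change shared by most transcripts would not appear. In leaf RNA, fewer cells of a type and less RNA per cell cannot be told apart.

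The unnamed probe set 266165_at had the highest smallest difference, with differences of 1.00, 0.97, 1.03 and 1.32 in elevated midday, elevated midnight, ambient midday and ambient midnight leaves. At elevated CO2 and midday it read 3.39, 2.33, 2.67 and 3.001 on limiting nitrogen, against 1.9, 2.14 and 1.504 on ample nitrogen. In ambient midday leaves the limiting arrays read 2.62, 2.17, 3.02 and 2.34 and the ample arrays 1.31, 1.26, 2.04 and 1.402. Both midday pairs were separate, and group means were lower at midnight in every nitrogen and CO2 combination. Elevated midnight leaves read 1.24, 1.84, 1.65 and 1.19 on limiting nitrogen and 1.09, 0.61, 0.36, 0.298 and 0.205 on ample nitrogen. Ambient midnight leaves read 1.62, 1.44, 1.45 and 1.798 on limiting nitrogen and 0.96, 0.28, 0.19, -0.36 and 0.204 on ample nitrogen. No ample array reached the lowest limiting array of its condition.

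AT1G64360 had the highest mean difference over the 4 conditions (1.24), and its differences were larger at elevated CO2 (1.60 at midday and 1.63 at midnight) than at ambient CO2 (0.82 and 0.89). Limiting leaves at elevated CO2 and midday read 2.85, 1.83, 1.06 and 0.73, against -1.3, -0.202 and 1.55 in ample leaves. For ambient CO2 and midday the limiting values were 0.81, 1.73, 0.49 and -0.016 and the ample values 0.029, 0.61, -0.83 and -0.079. Both midday pairs overlapped, and the third ample array at elevated CO2 lay above 2 of the 4 limiting arrays. At midnight and elevated CO2, limiting leaves read 1.59, 1.13, 1.68 and 2.49 and ample leaves -0.35, 0.73, -0.052, 0.22 and -0.087, with no overlap. At midnight and ambient CO2, limiting leaves read 0.72, 0.91, 0.65 and 1.39 and ample leaves -0.204, 1.15, -1.57, 0.26 and 0.48. There the second ample array exceeded 3 of the 4 limiting ones. Whether the nitrogen difference depends on CO2 shares the arrays that chose the gene and was not tested.

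AT3G16670, of the pollen Ole e 1 allergen and extensin family of secreted proteins, had the widest within-group spread of the 21 (SD 0.81). Its nitrogen differences were 1.36, 0.66, 1.61 and 1.23 in elevated midday, elevated midnight, ambient midday and ambient midnight leaves. Elevated midday leaves read -1.14, -0.020, 0.83 and 0.54 on limiting nitrogen and -0.28, -0.76 and -2.89 on ample nitrogen. These ranges overlapped, and replicate 3 of the ample arrays lay far under the others. In ambient midday leaves, limiting nitrogen gave 1.11, 1.25, 1.98 and 1.12 and ample nitrogen 0.12, -1.27, 0.197 and 0.007, which do not overlap. Elevated midnight values were -0.305, 0.12, -0.88 and -1.09 on limiting nitrogen and -0.51, -1.37, -1.35, -1.5 and -1.27 on ample nitrogen. Ambient midnight values were -0.29, -1.08, 1.31 and 0.75 on limiting nitrogen and 0.066, -1.02, -0.49, -1.84 and -2.03 on ample nitrogen. Both midnight pairs overlapped.

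AT2G39920, a member of the HAD-type acid phosphatase family, differed by 1.14, 0.63, 1.26 and 1.01 in the same order of conditions. Its elevated midday arrays read -0.5, 0.45, -0.43 and -0.16 on limiting nitrogen, against -1.53, -1.48 and -0.88 on ample nitrogen. Its ambient midday arrays read -0.35, -1.17, -1.13 and -1.47 on limiting nitrogen, against -2.28, -2.03, -2.62 and -2.23 on ample nitrogen. The midday groups were separate at both CO2 levels. At midnight, elevated CO2 gave -0.35, 0.14, 0.63 and 0.24 on limiting nitrogen and -0.501, -0.45, -0.049, -0.6 and -0.701 on ample nitrogen. Ambient CO2 gave 0.76, 0.055, 0.71 and 0.93 on limiting nitrogen and -0.34, -0.599, -0.78, -0.016 and -0.26 on ample nitrogen. The ambient midnight groups were separate, and in the elevated midnight groups 1 limiting array fell within the ample range.

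AT5G64550 differed by 0.87, 0.77, 0.57 and 1.36. At elevated CO2 and midday the limiting arrays read 0.61, -0.401, -0.32 and -0.57 and the ample arrays -1.26, -1.17 and -0.68. At ambient CO2 and midday they read -1.34, -1.32, -1.71 and -0.83 on limiting nitrogen and -2.16, -1.77, -1.57 and -1.97 on ample nitrogen. The elevated groups were separate, and the highest ambient ample array lay above the lowest ambient limiting one. Elevated midnight leaves gave 0.22, -0.021, 0.17 and 0.005 on limiting nitrogen and -0.043, -0.87, -0.16, -1.15 and -1.18 on ample nitrogen. Ambient midnight leaves gave 0.16, 0.23, -0.52 and -0.21 on limiting nitrogen and -1.59, -1.65, -0.68, -1.62 and -1.703 on ample nitrogen. Both midnight pairs were separate, the elevated one narrowly, and replicate 3 was the highest ambient ample array.

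AT4G36640, a Sec14-like protein of the phosphatidylinositol transfer family, had tight midday groups. Elevated midday leaves read -0.43, -0.29, -0.28 and -0.61 on limiting nitrogen, against -0.999, -0.87 and -0.77 on ample nitrogen. Ambient midday leaves read -0.89, -0.66, -0.96 and -0.71 on limiting nitrogen, against -1.72, -1.79, -1.52 and -1.77 on ample nitrogen. The limiting and ample arrays were separate at both CO2 levels, with differences of 0.48 and 0.89. At midnight the spread was wider: elevated CO2 gave 0.44, -1.18, -1.55 and -0.33 on limiting nitrogen and -0.89, -1.11, -0.98, -1.56 and -1.34 on ample nitrogen. Ambient midnight leaves had -2.02, -1.39, -2.04 and -2.01 on limiting nitrogen and -2.53, -1.25, -2.54, -3.29 and -2.46 on ample nitrogen. In both midnight pairs the ranges overlapped.

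EULS3, a lectin of the Euonymus type that binds carbohydrates, differed by 0.64, 0.71, 0.61 and 0.46. Elevated midday arrays were at 0.65, 0.26, -0.027 and -0.18 on limiting nitrogen and -0.84, -0.19 and -0.36 on ample nitrogen. Ambient midday arrays were at -0.36, -0.014, -0.795 and -0.25 on limiting nitrogen and -1.04, -1.04, -0.94 and -0.83 on ample nitrogen. The midday groups were separate at both CO2 levels, narrowly in each. Elevated midnight arrays were at -0.28, -0.801, -1.04 and -0.45 on limiting nitrogen and -1.86, -0.74, -1.33, -1.05 and -1.801 on ample nitrogen. Ambient midnight arrays were at -1.35, -1.01, -1.24 and -1.11 on limiting nitrogen and -1.66, -1.25, -1.82, -2.05 and -1.43 on ample nitrogen. At midnight the ranges overlapped at both CO2 levels.

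AT1G76960 differed by 0.53, 0.73, 0.42 and 0.66, with overlapping arrays in all 4 conditions. At elevated CO2 and midday it read 2.73, 2.41, 2.76 and 1.19 in limiting leaves and 0.94, 1.24 and 3.05 in ample leaves. Ambient midday leaves had 0.898, 1.18, 0.051 and -0.097 on limiting nitrogen and 0.1, 1.24, -0.64 and -0.34 on ample nitrogen. The highest elevated midday array was an ample one, replicate 3. At midnight the elevated arrays had 2.66, 2.61, 1.79 and 3.68 on limiting nitrogen and 2.66, 2.93, 1.04, 1.59 and 1.54 on ample nitrogen. The ambient arrays had 2.05, 1.43, 1.74 and 1.601 on limiting nitrogen and 0.63, 1.26, -0.11, 1.67 and 1.8 on ample nitrogen. Here too an ample array lay above the lowest limiting array at each CO2 level.

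**Figure D2:**
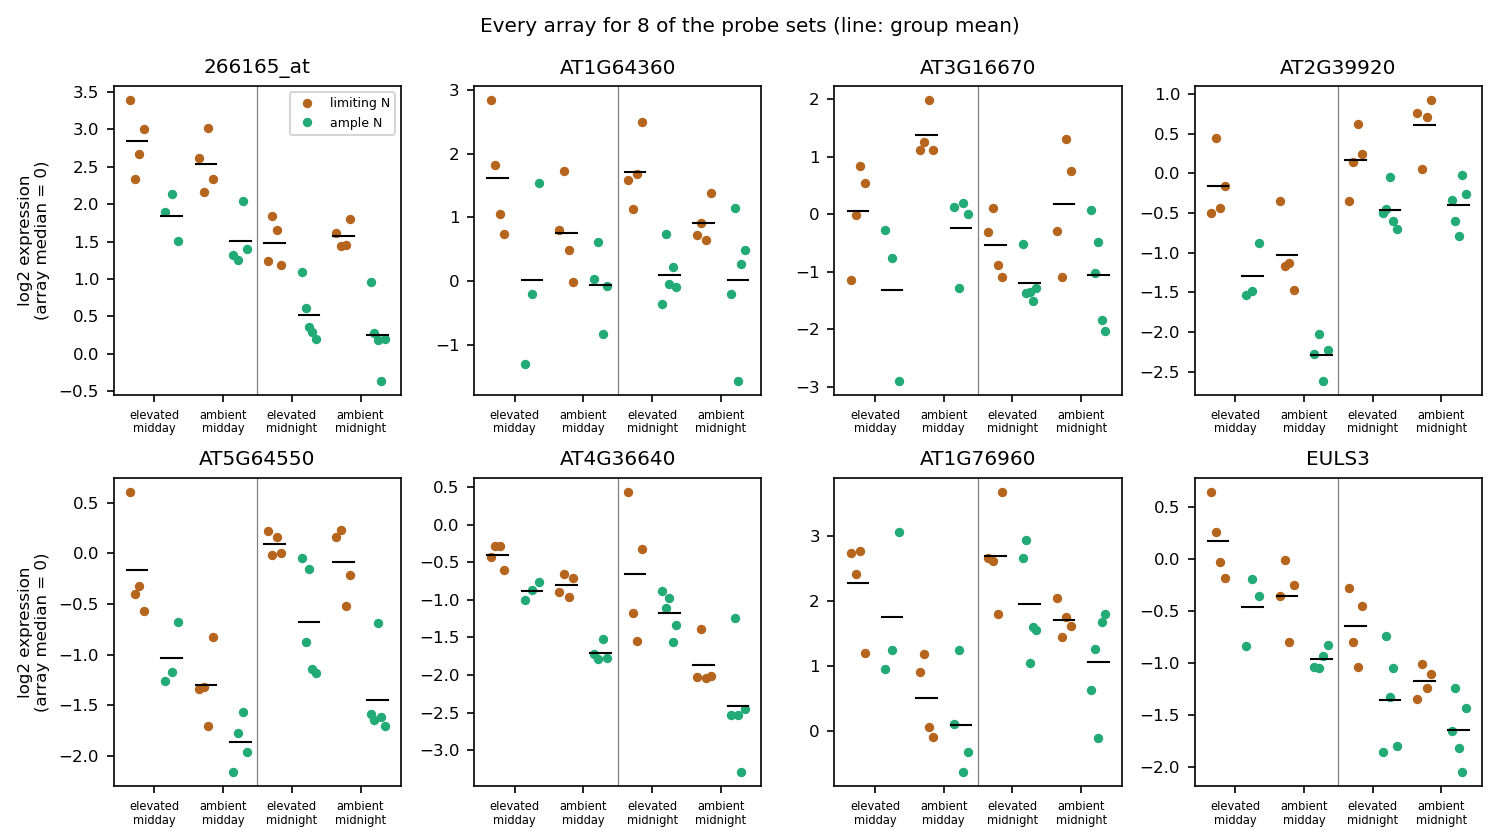
Log2 value relative to the array median (vertical axis) of every array for 8 of the probe sets, with limiting and ample nitrogen side by side in each CO2 and time group and a bar at each group mean. The arrays of 266165_at do not overlap between nitrogen supplies in any group, while those of AT1G76960 overlap in every group.

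The other named probe sets are given by range. AT2G36970, a UDP-glycosyltransferase, differed by 1.20, 0.49, 0.41 and 0.80. At elevated midday its arrays spanned -1.57 to -0.203 on limiting nitrogen, against -2.77 to -0.92 on ample nitrogen. Elevated midnight arrays spanned 0.81 to 1.07 on limiting nitrogen and -0.008 to 0.76 on ample nitrogen. Only the midnight arrays separated, and at ambient CO2 and midnight they spanned 0.51 to 0.76 on limiting nitrogen and -1.09 to 0.34 on ample nitrogen. Ambient midday arrays, where the difference was near the threshold, spanned -2.09 to -1.08 on limiting nitrogen and -2.29 to -1.62 on ample nitrogen. The ambient midday ranges overlapped.

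AT5G05250 differed by 0.74, 0.95, 0.41 and 0.63. Its elevated midnight arrays spanned 2.55 to 3.13 on limiting nitrogen and 1.47 to 2.17 on ample nitrogen, with no overlap. In elevated midday leaves the ranges were 0.93 to 1.83 on limiting nitrogen and -0.58 to 1.69 on ample nitrogen. The ambient ranges were -0.901 to 1.18 (limiting) and -1.36 to 0.83 (ample) at midday, and 2.11 to 2.57 (limiting) and 1.001 to 2.95 (ample) at midnight. AT5G05250 thus separated only in elevated midnight leaves. AT4G03500, an ankyrin-repeat protein, differed by 0.63, 0.74, 0.46 and 0.64. Its ranges were -2.596 to -1.41 (limiting) and -2.799 to -1.999 (ample) at elevated midday, and -3.31 to -2.16 (limiting) and -4.21 to -2.88 (ample) at elevated midnight. They were -2.48 to -1.92 (limiting) and -3.64 to -1.64 (ample) at ambient midday, and -3.59 to -2.57 (limiting) and -6.01 to -2.62 (ample) at ambient midnight. All 4 pairs overlapped, and the lowest value was that of a single ample array.

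The probe set 254833_s_at is paired with the adjacent copper amine oxidase family genes AT4G12290 and AT4G12280, whose signals it may not tell apart. Its nitrogen differences were 0.80, 0.91, 0.51 and 1.00. Elevated midnight arrays spanned 0.77 to 1.698 on limiting nitrogen and -0.037 to 0.69 on ample nitrogen, which do not overlap. Elevated midday arrays spanned -2.18 to -0.29 on limiting nitrogen and -2.72 to -0.58 on ample nitrogen. Those midday ranges overlapped. Apart from this pair, the closest named genes were AT2G39920 and EULS3 (AT2G39050), 95 protein-coding genes apart in the TAIR10.1 gene order.

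Of the other unnamed probe sets, 263549_at and 264809_at had the next highest smallest differences. They were 1.38, 1.1, 0.72 and 1.61 for 263549_at, and 0.72, 0.73, 0.66 and 1.38 for 264809_at. In elevated midnight leaves 263549_at spanned 0.94 to 1.64 on limiting nitrogen and -0.72 to 0.91 on ample nitrogen, just separate. For 264809_at the separation was at ambient CO2: it spanned 2.73 to 2.97 on limiting nitrogen and 1.95 to 2.68 on ample nitrogen at midday, and 1.73 to 2.09 on limiting nitrogen and 0.092 to 1.08 on ample nitrogen at midnight. The remaining 7 had mean differences between 0.52 and 0.79. The evenest was 257805_at, with 0.49, 0.53, 0.54 and 0.53 in the 4 conditions.

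The threshold had close neighbours on both sides. Just inside it, the smallest difference was 0.405 for 248970_at, 0.408 for AT5G05250 and 0.409 for AT2G36970. Just outside it were 259685_at at 0.388, the expansin gene EXPA4 at 0.362 and 246682_at at 0.350. GAMMA-VPE, one of the genes left out, stood at 0.385.

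The nitrogen offset of each array is given as a description, since the rule used these arrays. The median over the 21 probe sets, taken above the mean of the ample arrays of the same condition, lay between 0.47 and 1.11 in the 16 limiting arrays and between -0.35 and 0.51 in the 17 ample arrays. The ample array at the top, replicate 3 of elevated CO2 at midday, lay at 0.51, and 18 of the 21 probe sets read above the ample mean there. It is 1 of only 3 arrays in its group. Replicate 2 of ample nitrogen at ambient CO2 and midnight was the next, at 0.40. Leaving out 1 array at a time gave 14 to 25 probe sets meeting the rule. The lowest count came without replicate 2 of limiting nitrogen at ambient midday. Without both arrays that stood apart, 15 met the rule, all of them among the 21. In all 33 such repeats 7 of the 21 still met it: 266165_at, AT1G64360, 263549_at, AT3G16670, 264809_at, AT2G39920 and AT5G64550.

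**Figure D3:**
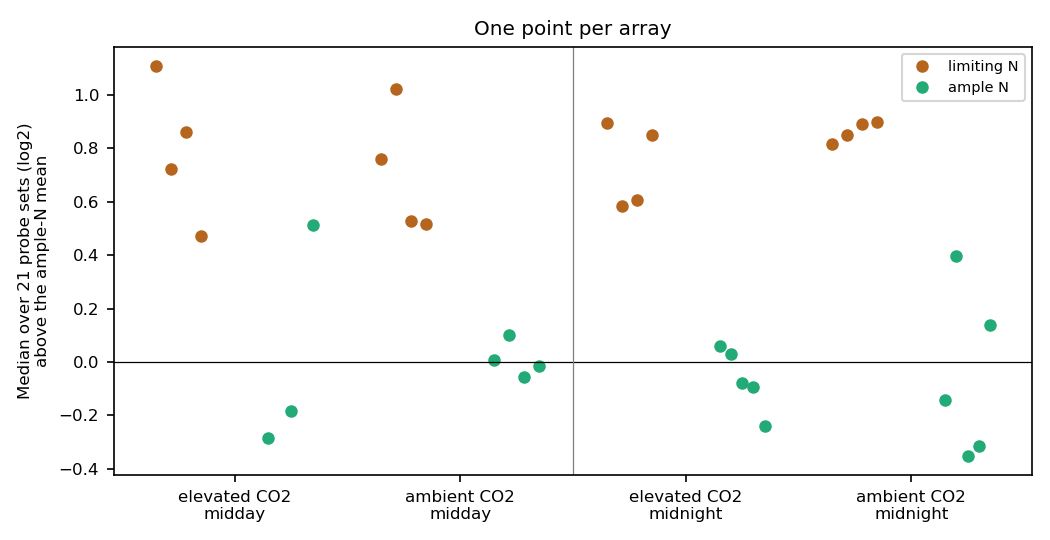
Median over the 21 probe sets of each array's log2 value above the ample-nitrogen mean of its condition (vertical axis), with 1 point per array and limiting nitrogen left of ample nitrogen in each condition. Limiting arrays lie between 0.47 and 1.11, and replicate 3 of ample nitrogen at elevated CO2 and midday lies at 0.51.

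Elevated CO2 was set against ambient CO2 with the nitrogen supplies and times averaged. At elevated CO2, 12 of the 21 (57.1%) rose at an adjusted p under 0.05 in limma, against 8.46% of all probe sets, and 1 of the 21 fell, against 12.9%. Estimates above 0 were found for 19 of the 21, against 43.1% of all probe sets, and the median effect was 0.46, against -0.035 over all. The averaged effect is nearly independent of the values used in the rule: the correlations that the design gives between it and the nitrogen differences lie between -0.077 and 0.053. The mesophyll genes PRK and SBPASE fell at elevated CO2 (-0.36 and -0.44). The array's 37 spike-in controls had a median of -0.23 in the same contrast, with 1 called lower and none higher. The part of these in the members' result was not tested.

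AT1G76960 rose most. It averaged 2.27 ± 0.74 and 2.69 ± 0.77 in elevated limiting leaves at midday (SD, n = 4) and midnight (SD, n = 4), against 0.51 ± 0.63 and 1.71 ± 0.26 in ambient limiting leaves (SD, n = 4 each). In ample leaves it averaged 1.74 ± 1.14 (SD, n = 3) and 1.95 ± 0.81 (SD, n = 5) at elevated CO2, against 0.091 ± 0.83 (SD, n = 4) and 1.05 ± 0.79 (SD, n = 5) at ambient CO2. Its mean effect was 1.33 with an SE of 0.25 (limma adjusted p = 0.00096), a ratio of 2.51. The unnamed 246821_at and 248551_at followed at 1.17 and 1.04. AT4G36640, the Sec14-like protein, rose by 0.92 with an SE of 0.15 (limma adjusted p = 0.00061). Its elevated midday arrays spanned -0.61 to -0.28 (limiting) and -0.999 to -0.77 (ample), against -0.96 to -0.66 and -1.79 to -1.52 at ambient CO2. Within each nitrogen supply, then, every elevated midday array lay above every ambient one.

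The other 8 that rose did so by 0.34 to 0.82. The amine oxidase probe set 254833_s_at rose by 0.82 and AT5G64550 by 0.73 (SE 0.13, limma adjusted p = 0.00083). Rises of 0.76 for 248970_at, 0.60 for 262092_at, 0.49 for 264809_at and 0.47 for 257805_at passed as well. EULS3 rose by 0.46 with an SE of 0.11 (limma adjusted p = 0.0049). AT2G39920 was the weakest call, at 0.34 (SE 0.12, limma adjusted p = 0.044), and it was called in only 17 of 33 fits with 1 array left out. The other 11 stayed called in all 33 such fits. Without both arrays that stood apart the same 12 were called, against 948 of 12772 probe sets called higher.

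AT3G16670 went the other way. It fell by 0.81 (SE 0.26, limma adjusted p = 0.026) at elevated CO2, and its elevated minus ambient difference was below 0 in all 4 nitrogen and time combinations (-1.32, -0.71, -1.07 and -0.14 in limiting midday, limiting midnight, ample midday and ample midnight leaves). This call was lost without replicate 3 of ample nitrogen at elevated midday, where the effect was -0.61 (limma adjusted p = 0.084). The 8 that passed in neither direction had effects between -0.11 (261491_at) and 0.45 (AT1G64360). AT2G36970, at 0.39, had a limma adjusted p of 0.080. AT5G05250 and AT4G03500 were at 0.36 and 0.18.

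By combination, and as a description, 20 of the 21 had an elevated minus ambient difference above 0 in limiting midday leaves (45.6% of all probe sets). The count was 17 in limiting midnight leaves (43.8%), 17 in ample midday leaves (46.7%) and 18 in ample midnight leaves (43.4%). All 4 differences were above 0 for 14 of the 21, against 17.0% of all probe sets. The rule used these same group means, so nothing is read from these counts.

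**Figure D4:**
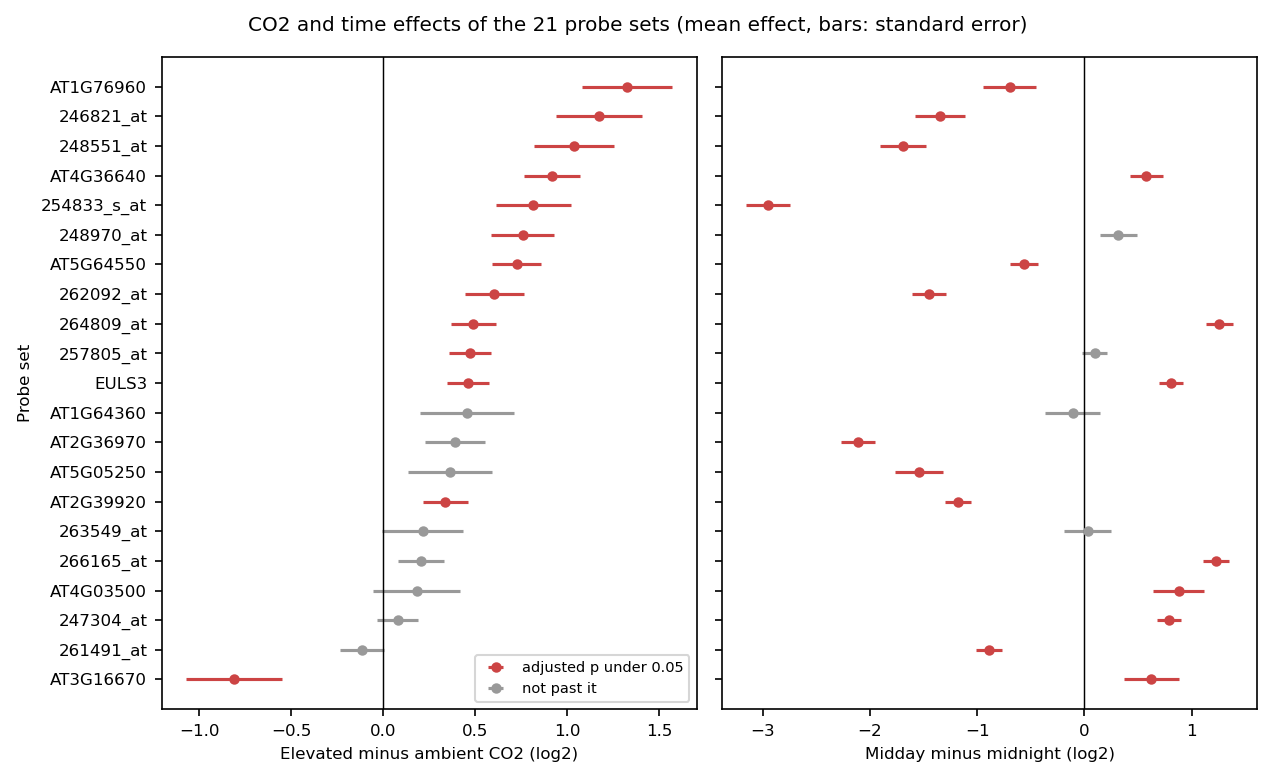
Effect of elevated against ambient CO2 (left) and of midday against midnight (right), each averaged over the other factors, as log2 differences with their SE, for the 21 probe sets in rows. Red points passed a limma adjusted p of 0.05 and grey points did not. The CO2 effects run from -0.81 (AT3G16670) to 1.33 (AT1G76960), and the time effects from -2.95 (254833_s_at) to 1.26 (264809_at).

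At midday alone, 6 of the 21 rose at elevated CO2, against 1.06% of all probe sets, and none fell, against 0.274%. They were AT1G76960 (1.71), 254833_s_at (1.52), 248551_at (1.29), 248970_at (1.07), AT5G64550 (0.98) and AT2G39920 (0.93). At an unadjusted p under 0.05, 13 of the 21 passed in either direction, against 16.7% of all probe sets. Without replicate 3 of ample nitrogen at elevated midday, limma called none of the 12772 probe sets tested in this contrast (1378 at an unadjusted p under 0.05). Each midday call is thus lost without that array. Without it the effects of these 6 were 1.38 for AT1G76960, 1.20 for 254833_s_at, 1.14 for 248551_at, 0.77 for 248970_at, 0.89 for AT5G64550 and 0.83 for AT2G39920, with limma adjusted p-values of 0.086 to 0.19. Without both arrays that stood apart, 7 of the 21 were called at midday, and calls over all probe sets rose from 171 to 566. At midnight alone, 5 of the 21 rose, against 5.14% of all probe sets, and none fell, against 8.24%. These were 246821_at (1.48), AT4G36640 (1.23, SE 0.21), 262092_at (0.70), 264809_at (0.54) and 257805_at (0.46). At an unadjusted p under 0.05, 11 of the 21 passed at midnight, against 30.4% of all probe sets. Only 2 were called at midnight without both arrays that stood apart, where calls over all probe sets fell from 1709 to 219. The count was also 2 without any 1 of 4 single midnight arrays. Probe sets called higher and lower among all those tested are in brackets (656 and 1053 with every array). At ambient CO2 these were replicate 4 of ample nitrogen (553 and 903) and replicate 1 of limiting nitrogen (445 and 609). At elevated CO2 they were replicate 2 of ample nitrogen (436 and 700) and replicate 1 of limiting nitrogen (138 and 153). Without replicate 3 of ample nitrogen at ambient CO2 (464 and 737), or replicate 4 of limiting nitrogen at elevated CO2 (502 and 821), 3 were called. Without replicate 3 of limiting nitrogen at elevated CO2 (889 and 1455), 8 were called. The spike-in controls had a median of -0.33 at midnight.

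No member was called at both times, but the difference between the times was itself not called. The CO2 by time interaction passed limma's adjusted threshold for 0 of the 21 and 0.0% of all probe sets, with 3 of the 21 and 695 of 12772 (5.44%) at an unadjusted p under 0.05. AT2G39920 had an interaction of 1.19 (SE 0.24, limma adjusted p = 0.39). Its CO2 effect was 0.93 at midday and -0.25 at midnight. For 254833_s_at the interaction was 1.41 (SE 0.41, limma adjusted p = 0.66). Without replicate 1 of limiting nitrogen at ambient midday, 1 member was called, out of 1 called over all probe sets. Without both arrays that stood apart the count was 0, as it was over all probe sets.

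Time of day moved most of the members, as it moved most of all probe sets, in both directions. Of the 21, 7 (33.3%) were higher at midday than at midnight, against 33.4% of all probe sets, and 10 were lower, against 31.1%. Without both arrays that stood apart, 6 were higher and 10 lower, against 4448 and 4164 of 12772 probe sets. The count of those higher is thus close to the background. The 4 mesophyll genes all rose at midday, by 0.42 to 1.23, and 16 of the 37 spike-in controls were called higher and 5 lower in this contrast. Their part in the members' time calls was not tested.

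Higher at midday were 264809_at (1.26) and 266165_at (1.23, SE 0.12, limma adjusted p = 5.2e-10). AT4G03500 followed at 0.88, EULS3 at 0.80 (SE 0.11, limma adjusted p = 2.7e-07) and 247304_at at 0.79. AT3G16670 was higher by 0.63 (limma adjusted p = 0.036) and AT4G36640 by 0.58 (SE 0.15, limma adjusted p = 0.0014).

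Lower at midday by the largest amount was the amine oxidase probe set 254833_s_at, at -2.95 (SE 0.21, limma adjusted p = 1.1e-13), which is 7.71-fold higher at midnight. The glycosyltransferase AT2G36970 was at -2.11 (SE 0.16, limma adjusted p = 9.8e-13). Its limiting leaves at elevated CO2 averaged -0.903 ± 0.57 at midday and 0.96 ± 0.11 at midnight (SD, n = 4 each). AT5G05250 was at -1.54, AT2G39920 at -1.17, AT1G76960 at -0.69 and AT5G64550 at -0.56. Among unnamed probe sets, 248551_at, 262092_at, 246821_at and 261491_at were lower, at -1.69, -1.45, -1.35 and -0.89. The 4 not called were 248970_at (0.32), 257805_at (0.10), 263549_at (0.03) and AT1G64360 (-0.11).

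Members called for CO2 were divided over the time calls, with no test of the overlap. Of the 12 that rose at elevated CO2, 3 were also higher at midday, 7 were lower at midday and 2 had no time call. Over all probe sets, 33.4% were higher and 31.1% lower at midday. The same split among all probe sets that rose at elevated CO2 was not counted, so nothing is read from this division.

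No member was held in the gene lists for nitrogen, carbon and ageing pathways, but few of their genes could be looked at. Of 177 loci in 17 lists, 23 were measured under a gene name, in 7 lists. None was measured of 30 nitrogen uptake and assimilation loci, 12 amino acid transporters, 11 phosphate starvation loci and 8 sugar-repressed and dark-induced loci. Those lists could not hold a member, and the 10 members without a gene name could not match any list. Neither HHO2 nor HHO3, transcription factors of the nitrogen response, was higher on limiting nitrogen: their mean nitrogen differences were -0.34 and -0.51, with HHO2 higher and HHO3 lower at midday by test, and neither called for CO2. Of 9 measured autophagy genes of the ATG8 family, 1 had a mean nitrogen difference above 0 (ATG8H, 0.13), against 6060 of 12772 probe sets. The median of the 9 was -0.034, against -0.009 over all probe sets. In that family 2 rose at elevated CO2 (ATG8D by 0.36 and ATG8A by 0.38), none fell, 1 was higher at midday and 6 were lower. Both senescence genes measured, WRKY53 and SAG101, rose at elevated CO2, by 1.16 and 0.50. Their mean nitrogen differences were 0.46 and 0.082, but neither was above 0 in all 4 conditions. WRKY53 differed by 0.75 and 1.00 at ambient midday and midnight, and by -0.22 and 0.33 at elevated midday and midnight. SAG101 differed by -0.051, -0.18, 0.23 and 0.33 in that order. Of 4 starch genes, the amylase AMY1 rose at elevated CO2 (1.1), 1 was higher at midday and 2 were lower. FAMA had a mean nitrogen difference of 0.21 and SWEET11 of 0.18, against -0.33 to -0.034 for the 4 mesophyll genes. FAMA and SWEET11 were both lower at midday and neither was called for CO2.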

How the data were processed

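RNA from 33 leaf samples in 8 groups was hybridised to Affymetrix Arabidopsis arrays, labelled with a 3' in vitro transcription kit, per the labels' protocols. The deposited values are log2 expression per probe set with every array's median at 0; that each array was centred, and that the logarithm is of base 2, was checked on the values and on the hybridisation controls. The software the authors used for probe summary and background correction was not given in the sources used here, and the scanner intensities were not used here. The table held 12826 probe sets, of which 54 were controls; 12772 were tested with limma 3.58.1 in R 4.3.3, as group means with no replicate block and Benjamini-Hochberg adjustment over all probe sets within each contrast. Replicate numbers were not taken to pair arrays: the labels give no shared source, and deviations of 46 same-numbered pairs correlated between -0.46 and 0.30 (median 0.007), against -0.49 to 0.54 for 158 other pairs. Only between elevated and ambient limiting midday leaves did all 4 same-numbered pairs exceed 0.1 (0.12 to 0.30).

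Names came from the platform annotation, which pairs 6898 probe sets with 1 gene, 272 with several and 5602 with none; gene order came from the TAIR10.1 RefSeq gene table. The script was tested on simulated data. Members, gene lists and tests were chosen with earlier results of these data known. The named-gene rule was to name each member paired with 1 gene, with array values or ranges, the 3 unnamed members with the highest smallest difference, and 3 probe sets on each side of the threshold; other members were named after their values were seen. Promoter motifs and function classes were not analysed here, because the reference tables used hold no sequences and no function text. Precision is limited by the 3 to 5 arrays per group. Alternatives were other thresholds, group medians, quantile normalization, a filter on dim probe sets, a replicate block, array weights, another variance prior, the arrays of 1 time only, and arrays left out.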

Additional observations from a re-analysis of the deposited data

Results flagged for a closer look

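In groups of 4 or 5 arrays, chance alone sets a value apart in about 1 in 20. The count among members was close to that rate, so nothing is read from it. In the 147 member groups looked at, 10 values lay far from the rest of their group. Of these, 3 were of AT3G16670: replicate 2 of ambient ample midday at -1.27 (the others 0.007 to 0.20), replicate 3 of ambient limiting midday at 1.98 (the others 1.11 to 1.25) and replicate 1 of elevated ample midnight at -0.51 (the others -1.5 to -1.27). In ambient limiting midday leaves AT5G05250 was at -0.90 in replicate 3 (the others 0.90 to 1.18). In ambient midnight leaves AT4G03500 was at -6.01 in ample replicate 1 (the others -3.27 to -2.62), AT5G64550 at -0.68 in ample replicate 3 (the others -1.70 to -1.59) and AT4G36640 at -1.39 in limiting replicate 2 (the others -2.04 to -2.01). Among unnamed probe sets, 263549_at was at 0.94 in replicate 1 of elevated limiting midnight (the others 1.53 to 1.64), 247304_at at 1.37 in replicate 4 of ambient ample midday (the others 1.27 to 1.28) and 262092_at at 1.24 in replicate 2 of elevated ample midnight (the others 0.44 to 0.59).

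The 3' to 5' control ratio of 3 arrays also lay apart from its group: 4.41 in replicate 4 of ambient ample midnight (the others 1.71 to 2.35), 1.89 in replicate 1 of ambient limiting midday (the others 1.797 to 1.810) and 1.72 in replicate 1 of elevated limiting midnight (the others 1.96 to 2.00).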

How the results depend on the processing

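The number of probe sets meeting the rule was 32 at a threshold of 0.3, 9 at 0.5, 19 with group medians (15 shared), 21 with quantile normalization (20 shared), 15 without the dimmest 30% and 14 to 25 with 1 array left out. With the members taken at 0.5, 4 of 9 rose at elevated CO2, and at 0.3, 17 of 32, against 8.46% of all probe sets. Calls at midnight fell to 2 with array weights, 2 with the arrays of that time alone and 2 without both arrays that stood apart. Higher at midday were 4 of the 15 left without the dimmest 30%, against 3056 of 8940 probe sets. Leaving out 1 array gave 11 to 13 members higher at elevated CO2, 0 to 1 lower, 0 to 6 at midday, 2 to 8 at midnight, 0 to 1 for the interaction, 6 to 7 higher at midday and 10 lower. Over all 12772 probe sets, the same fits called 785 to 1209 higher and 1086 to 1904 lower at elevated CO2. The CO2 effect at midnight had 138 to 889 higher and 153 to 1455 lower. Midday against midnight had 4087 to 4454 higher and 3857 to 4134 lower. With a replicate block, 11 rose and 1 fell at elevated CO2, 4 were called at midday, 4 at midnight and 0 for the interaction, and 6 were higher and 10 lower at midday. Over all 12772 probe sets the block gave 983 higher and 1445 lower at elevated CO2, and 0 for the interaction. Its CO2 calls at midnight were 631 higher and 988 lower, and 4200 were higher and 3893 lower at midday than at midnight. Over all probe sets, CO2 calls at midday were 171 here, 793 with array weights, 331 with the arrays of that time alone, 566 without both arrays that stood apart and 99 with the block. At midnight they were 1709 here, and 794, 412 and 219 under the first 3 of these.

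Signs turned for effects that passed no test: the CO2 effect of 247304_at was -0.00061 with array weights, the time effect of 263549_at was -0.12 with array weights and -0.042 without both arrays that stood apart, and with 1 array left out it lay between -0.056 and 0.14. AT1G64360's time effect lay between -0.30 and 0.056. Over all 21 members and the settings other than 1 array left out, 294 effects kept their call status and direction, 17 lost their call and 3 turned. With 1 array left out, 1652 kept both, 83 lost their call, 5 gained a call and 9 turned. The cause was not tested. Leaving out both arrays that stood apart, and counting CO2 calls at other thresholds, were chosen after seeing the data. The number of arrays limits the precision.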

Other observations

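Between the thresholds of 0.3 and 0.4, 11 further probe sets had limiting above ample nitrogen in every condition. Of these, 10 had a CO2 effect above 0 and 5 rose at elevated CO2, with none falling, against 43.1% above 0, 8.46% rising and 12.9% falling over all probe sets: 249346_at by 1.29 (SE 0.21), 249581_at by 0.92 (SE 0.19), 246682_at by 0.61 (SE 0.11), 259685_at by 0.36 (SE 0.12) and 245891_at by 0.33 (SE 0.12). The first of these had a limma adjusted p of 0.00056. The 1 named gene among the 11, the expansin gene EXPA4, which acts on cell wall extension, had a CO2 effect of 0.34 (SE 0.40, limma adjusted p = 0.57) and was higher at midday by 1.31 (limma adjusted p = 0.0052). These probe sets were looked at after the data had been seen.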
